A study of Mus musculus with 11 samples.

Results

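Cultures of mouse neural stem cells (NSCs) kept in differentiation medium were compared with cultures kept in proliferation medium, all of them with the EtOH vehicle and without the compound that the study was about. The comparison took every library labelled Differentiation_CTRL and every library labelled Proliferation_CTRL, which gave 5 of the 11 libraries of the series, 2 in differentiation medium and 3 in proliferation medium. The cells were primary NSCs from the hippocampus of mouse embryos, and RNA was taken on day 7. Proliferation medium was DMEM/F12 with EGF and bFGF at 20 ng/ml each and 1% B27, and differentiation medium lacked both growth factors and held 2% B27. Both media held the same shares of glutaMAX and of penicillin/streptomycin. The media therefore differed in the growth factors and in the supplement, and the effects of these cannot be told apart. The labels give no strain or genetic change, and the study's methods name C57BL/6 mice. Whether the cells of these libraries grew as floating neurospheres or attached is not given in the sources used here. The other 6 libraries of the series came from cultures with 1 µM 4HBP, which the labels call 4-Hydroxybenzoic acid and the study's text 4-hydroxybenzophenone, in the same media, and were used only for a comparison at the end.

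NSCs are dividing cells of the embryonic and adult brain that give rise to neurons, astrocytes and oligodendrocytes. EGF and bFGF, acting through receptor tyrosine kinases and the MAP kinase cascade, keep them in the cell cycle in culture, and cells from which both factors are withdrawn leave the cycle and take up glial or neuronal programmes. B27 is a serum-free supplement that contains, among other components, triiodothyronine, corticosterone, progesterone, a retinyl ester, insulin, transferrin and antioxidants, so hormone and vitamin levels change with its dose.

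The authors deposited the expected count of each gene, which is the number of fragments RSEM assigned to it after sharing out fragments that align to more than 1 place. Library totals ran from 20934810 to 23438463 expected counts. Levels are written as CPM, the counts brought to a common library size, and the detection floor of 3 counts was worth 0.128 to 0.143 CPM. Floors and counting intervals cover counting error only. Between 19259 and 19603 genes had a count in a library of proliferation medium and 21320 and 21255 in those of differentiation medium. The mitochondrial share of the counts was 8.63% to 9.41% in proliferation medium and lower, at 5.76% and 5.94%, in differentiation medium. The mean fragment length implied by the effective lengths was 194 to 204 bases in proliferation medium and shorter, at 174 and 180.0 bases, in differentiation medium. These properties moved with the medium, and their part in the results was not tested. The 2 libraries of differentiation medium lay closer to each other (mean chi-square per gene of 2.97) than any 2 of proliferation medium (10.04 to 12.7), and no library was a duplicate. The labels do not state whether the libraries of a group came from separate cultures, so p-values measure the spread between these libraries, which may be technical. They name no batch or date.

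The CPM given for a gene include TMM scaling factors (normalized CPM), log2 fold changes are those of differentiation minus proliferation medium with their standard error, and adjusted p-values are from edgeR's quasi-likelihood test with Benjamini-Hochberg adjustment over 15308 genes. A gene is said to have risen or fallen where the adjusted p was under 0.05 and the level changed more than 2-fold. Of the 15308 genes, 3456 (22.6%) changed by this rule, 2090 of them (13.7%) higher and 1366 (8.92%) lower in differentiation medium. The counts of risen and fallen list members given below are to be read beside these shares. With the adjusted p alone, 9631 (62.9%) differed, 4810 (31.4%) higher and 4821 (31.5%) lower, and the values of the media did not overlap for 77.4% of the genes, so a difference in direction alone was common here. The median log2 fold change of all genes was 0.02. Large changes were more often rises than falls. There were 182 rises and 86 falls of more than 4 on the log2 scale. Among protein-coding genes, 1643 rose and 1182 fell of 13360, and among long intergenic non-coding RNAs 135 rose and 45 fell of 452.

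**Figure D1:**
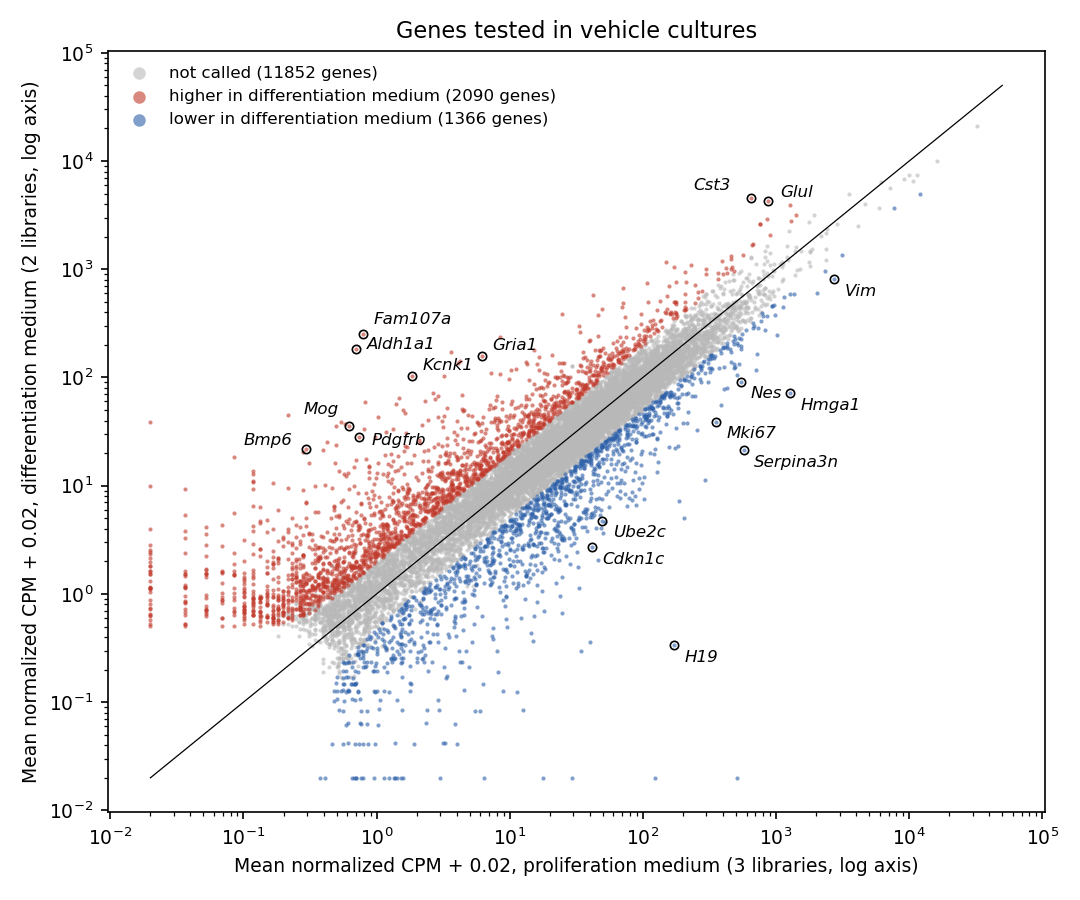
Mean normalized CPM of each tested gene in proliferation medium (horizontal axis, 3 libraries) and differentiation medium (vertical axis, 2 libraries), both on log axes with 0.02 added. Red and blue points are the 2090 genes that rose and the 1366 that fell, grey points the other genes, and circles mark genes named in the text, of which Aldh1a1 and Fam107a lie far above the diagonal and H19 far below it.

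The cell cycle programme fell nearly as a whole. Of the 54 genes of a mitosis list (mitotic entry, spindle, kinetochore and cytokinesis), 53 fell and 0 rose, where 8.92% of all genes tested fell. The median log2 fold change of the list was -2.80 against 0.02 over all genes. The summed level of the list was 2599 to 3366 CPM in proliferation medium and 418 and 474 CPM in differentiation medium. In bulk RNA, fewer cycling cells and less of these RNAs in each cell cannot be told apart. Many mitotic genes share 2 short elements near their start site, the cell cycle genes homology region (CHR), bound by the DREAM and B-MYB complexes, and the CCAAT box, bound by NF-Y. The promoters of 3 mitotic genes that fell, from 250 bases before to 50 after the RefSeq start site (build GRCm38.p6), are shown because they hold both elements, followed by that of Nusap1, which fell and holds neither. They are the 3 members with the largest fall among those with both elements and the member with the largest fall among those with neither. Capitals mark TTTGAA (CHR) and CCAAT on either strand. The Ckap2l promoter lies at chr2:129297163-129297462 on the minus strand, that of Ube2c at chr2:164769679-164769978 on the plus strand, that of Hmmr at chr11:40733388-40733687 on the minus strand and that of Nusap1 at chr2:119618048-119618347 on the plus strand.
Ckap2l: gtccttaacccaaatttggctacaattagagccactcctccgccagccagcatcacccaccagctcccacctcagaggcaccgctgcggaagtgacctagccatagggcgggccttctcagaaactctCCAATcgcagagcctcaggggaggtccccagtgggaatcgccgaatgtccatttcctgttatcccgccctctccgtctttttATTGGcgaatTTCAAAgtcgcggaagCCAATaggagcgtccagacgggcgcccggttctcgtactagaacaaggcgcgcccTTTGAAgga
Ube2c: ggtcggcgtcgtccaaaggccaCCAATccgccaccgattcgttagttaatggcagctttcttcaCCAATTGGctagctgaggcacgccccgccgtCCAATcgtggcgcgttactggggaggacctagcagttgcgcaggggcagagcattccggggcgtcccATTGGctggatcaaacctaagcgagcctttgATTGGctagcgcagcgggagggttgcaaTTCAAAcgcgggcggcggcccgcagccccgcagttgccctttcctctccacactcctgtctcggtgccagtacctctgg
Hmmr: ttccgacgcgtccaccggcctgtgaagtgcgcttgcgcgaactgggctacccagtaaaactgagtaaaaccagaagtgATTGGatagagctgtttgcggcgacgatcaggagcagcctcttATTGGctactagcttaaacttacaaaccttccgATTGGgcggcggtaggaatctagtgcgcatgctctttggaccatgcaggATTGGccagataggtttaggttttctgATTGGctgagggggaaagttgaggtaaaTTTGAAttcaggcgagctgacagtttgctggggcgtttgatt
Nusap1: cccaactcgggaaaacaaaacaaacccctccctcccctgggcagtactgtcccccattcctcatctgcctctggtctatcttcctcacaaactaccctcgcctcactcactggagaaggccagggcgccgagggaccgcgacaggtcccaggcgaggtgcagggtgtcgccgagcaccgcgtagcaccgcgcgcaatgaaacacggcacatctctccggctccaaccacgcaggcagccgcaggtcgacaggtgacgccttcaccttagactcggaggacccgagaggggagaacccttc

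Ckap2l encodes a spindle protein of neural progenitors, and it had 77.3, 102 and 81.2 CPM in proliferation medium and 7.17 and 8.75 CPM in differentiation medium (log2 fold change -3.44 ± 0.15, adjusted p = 1.8e-07). Ube2c, the ubiquitin-conjugating enzyme that works with the anaphase-promoting complex, had 42.9, 60.9 and 44.8 CPM in proliferation medium and 4.05 and 5.43 CPM in differentiation medium (log2 fold change -3.38 ± 0.19, adjusted p = 8.0e-07). Hmmr, a spindle assembly protein, had 32.7, 44.6 and 36.999 CPM in proliferation medium and 3.92 and 3.69 CPM in differentiation medium (log2 fold change -3.32 ± 0.16, adjusted p = 2.8e-07). For these genes every library of differentiation medium was below every library of proliferation medium by a wide margin, and the same was true of Nusap1, a spindle microtubule protein without either element, with 61.04, 91.2 and 69.1 CPM in proliferation medium and 7.22 and 9.496 CPM in differentiation medium (log2 fold change -3.14 ± 0.19, adjusted p = 1.2e-06). Among the 45 list members with a promoter sequence, 32 (71.1%) held CHR, 32 (71.1%) held CCAAT and 27 (60.0%) held both. Of all 27025 promoters, 18.1% held CHR, 37.9% CCAAT and 7.12% both, and of the 11050 promoters of tested genes 11.7%, 39.2% and 5.15%. The list members with CHR had a median log2 fold change of -2.88 and the 13 without it of -2.48, so the fall was not limited to members with the letters. Of the 865 promoters of fallen genes in neither the mitosis nor the DNA replication list, 9.83% held both elements, and of the 1351 promoters of genes that rose, 4.74%. The letters GGCGGGA, which lie in many E2F sites, were in 33.3% of the 33 promoters of the DNA replication list, in 24.4% of those of the mitosis list and in 21.2% of those of tested genes. A match is a description of letters and not a binding site.

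**Figure D2:**
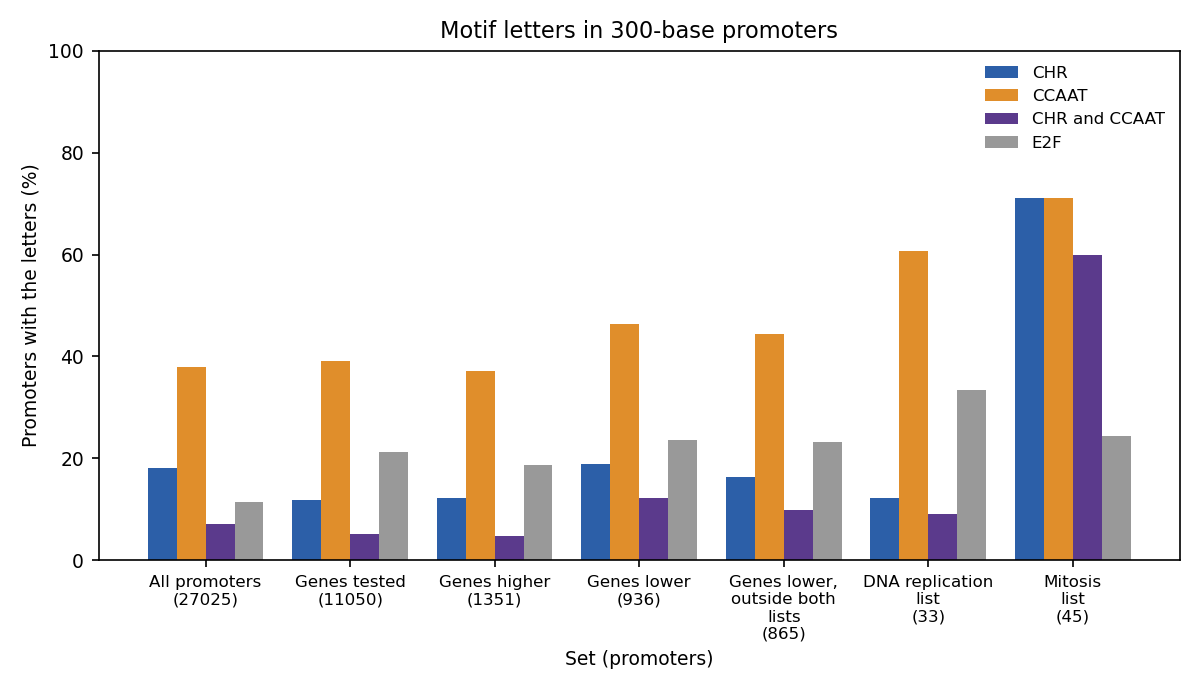
Share of promoters (vertical axis, percent) of 7 sets of genes (horizontal axis, with the number of promoters) that hold the letters TTTGAA (CHR), CCAAT, both, or GGCGGGA (E2F) on either strand within 300 bases. Both CHR and CCAAT were in 60.0% of the promoters of the mitosis list, against 5.15% of those of tested genes and 9.09% of those of the DNA replication list.

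Mki67, whose protein Ki67 coats mitotic chromosomes and marks cycling cells, had 318, 419 and 332 CPM in proliferation medium and 33.8 and 44.2 CPM in differentiation medium (log2 fold change -3.19 ± 0.15, adjusted p = 3.0e-07). Top2a, the topoisomerase that separates replicated DNA, had 230.0, 276 and 253 CPM in proliferation medium and 27.2 and 38.5 CPM in differentiation medium (log2 fold change -2.95 ± 0.15, adjusted p = 3.2e-07). Both fell in every library and both stayed far above the detection floor in differentiation medium. Cdk1, the kinase of mitotic entry, fell from 32.7 ± 4.35 to 4.79 ± 0.734 CPM (SD, n = 3 and 2), and its cyclins Ccnb1 (41.7 to 5.57 CPM), Ccnb2 (15.6 to 1.81 CPM) and Ccna2 (92.7 to 11.7 CPM) fell with it. Foxm1 and Mybl2, transcription factors of the mitotic genes, fell by 2.65 and by 2.48 on the log2 scale. The smallest fall was that of the condensin subunit Smc4 (-1.32), from 106 to 42.6 CPM. Pttg1, which encodes securin, was the member that did not fall, with 19.96, 16.4 and 16.6 CPM in proliferation medium and 22.3 and 21.2 CPM in differentiation medium (log2 fold change 0.30 ± 0.11, adjusted p = 0.035). Of the 50-base words of Ccnb1 transcripts, 23.4% also occur in transcripts of other genes, mostly of a pseudogene, so its count is less certain.

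Genes of DNA replication and nucleotide supply fell in 35 of 43 cases and rose in 0, with a median log2 fold change of -1.83, and the other 8 were lower with an adjusted p under 0.05 without reaching 2-fold. Tk1, thymidine kinase of S phase, had 13.4, 11.5 and 12.5 CPM in proliferation medium and 1.1 and 1.29 CPM in differentiation medium (log2 fold change -3.38 ± 0.18, adjusted p = 5.1e-07). Cdc6, which loads the MCM helicase on origins, had 16.8, 12.6 and 19.01 CPM in proliferation medium and 1.72 and 1.58 CPM in differentiation medium (log2 fold change -3.29 ± 0.22, adjusted p = 2.1e-06). The helicase subunits themselves fell too, Mcm2 from 76.5 to 14.8 CPM, Mcm3 from 68.8 to 11.3 CPM, Mcm5 from 63.2 to 12.1 CPM and Mcm4 from 83.1 to 26.9 CPM. Uhrf1, which brings the maintenance methyltransferase to replicated DNA, fell from 67.2 to 7.62 CPM, and Clspn, an adaptor of the replication checkpoint, from 48.8 to 5.98 CPM. Pcna, the sliding clamp that also serves repair, had 127, 118 and 128 CPM in proliferation medium and 67.7 and 63.9 CPM in differentiation medium (log2 fold change -0.91 ± 0.07, adjusted p = 3.9e-06) and missed the fold threshold.

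Of the genes that govern entry into S phase, 11 of 26 fell and 1 rose. Among the cyclins of the D type, which are induced by growth factor signalling, Ccnd1 fell, with 273, 210.2 and 439.6 CPM in proliferation medium and 93.8 and 88.3 CPM in differentiation medium (log2 fold change -1.76 ± 0.26, adjusted p = 2.8e-04) and a wide spread in proliferation medium. Ccnd2 fell as well, with 411, 329.6 and 509 CPM in proliferation medium and 186 and 201 CPM in differentiation medium (log2 fold change -1.11 ± 0.15, adjusted p = 1.8e-04), but without replicate 3 of proliferation medium its log2 fold change was -0.94, under the threshold. The remaining D-type cyclin, Ccnd3, had 43.02, 38.4 and 42.7 CPM in proliferation medium and 62.5 and 59.9 CPM in differentiation medium, with a log2 fold change of 0.56 ± 0.08 that stayed under 2-fold. Ccne1 and Ccne2, the E-type cyclins that are E2F targets, fell from 14.4 to 3.19 CPM and from 11.96 to 2.001 CPM. Among CDK inhibitors the directions were opposite. Cdkn1c (p57), an imprinted inhibitor, fell more than any other member, with 42.97, 45.1 and 36.3 CPM in proliferation medium and 2.16 and 3.19 CPM in differentiation medium (log2 fold change -3.95 ± 0.17, adjusted p = 1.6e-07). Cdkn1a (p21), a target of p53 and of glucocorticoids, rose, with 118, 104 and 152 CPM in proliferation medium and 266 and 289.6 CPM in differentiation medium (log2 fold change 1.16 ± 0.13, adjusted p = 6.0e-05). The RB relative Rbl1 and the E2F repressor E2f8 fell, from 31.98 to 6.47 CPM and from 25.9 to 5.399 CPM, and Cdk4 had 289 ± 14.3 and 204 ± 2.57 CPM (SD, n = 3 and 2), a difference below 2-fold.

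**Figure D3:**
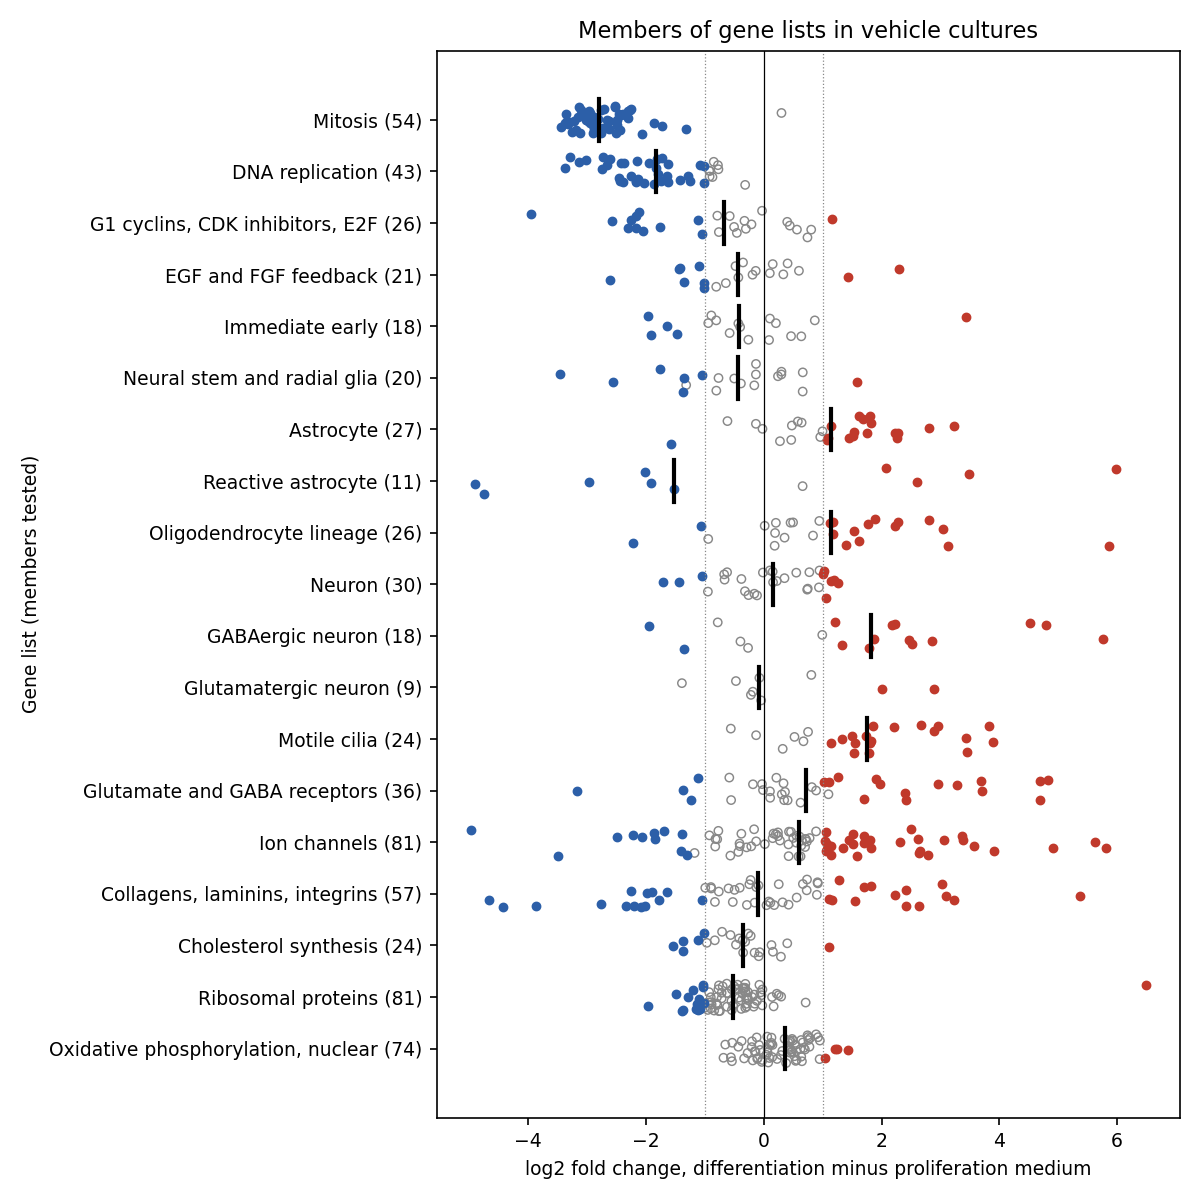
log2 fold change (horizontal axis, differentiation minus proliferation medium) of each tested member of 19 gene lists (vertical axis, with the number tested). Filled points are members that rose (red) or fell (blue), open points those that did neither, black bars the medians and dotted lines 2-fold. The mitosis list lies at a median of -2.80 and the DNA replication list at -1.83, the astrocyte list at 1.14 and the oligodendrocyte list at 1.15.

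Genes that respond to EGF and FGF signalling did not move together, although both factors were missing from one of the media. Of 21 tested members of the feedback list, 7 fell, 2 rose and 12 did neither, with a median log2 fold change of -0.43. The dual-specificity phosphatase Dusp5 fell, with 7.99, 8.76 and 18.3 CPM in proliferation medium and 3.92 and 4.69 CPM in differentiation medium (log2 fold change -1.44 ± 0.35, adjusted p = 0.0056), although the change was -0.96, under the threshold, without replicate 3 of proliferation medium. Also lower was Ier3, an immediate early gene of the ERK pathway, which fell from 4.47 to 0.729 CPM. Lrig1, which lowers EGF receptor levels, fell from 590.4 to 276 CPM. Dusp6 and Dusp4, phosphatases that inactivate ERK and are often read as a sign of FGF signalling, rose. Dusp6 had 14.3, 10.6 and 15.04 CPM in proliferation medium and 35.7 and 36.2 CPM in differentiation medium (log2 fold change 1.43 ± 0.13, adjusted p = 1.3e-05), and Dusp4 had 6.25, 5.88 and 12.6 CPM in proliferation medium and 37.8 and 43.2 CPM in differentiation medium (log2 fold change 2.30 ± 0.25, adjusted p = 4.1e-05). None of the Sprouty genes, other inhibitors of the pathway, passed the fold threshold. Spry2 had 68.1, 61.8 and 67.6 CPM in proliferation medium and 71.3 and 70.1 CPM in differentiation medium. Spry4 had overlapping values of 16.04, 11.8 and 13.9 CPM in proliferation medium and 12.2 and 13.1 CPM in differentiation medium. Spry1 had 9.204, 6.85 and 11.9 CPM in proliferation medium and 13.9 and 14.3 CPM in differentiation medium (log2 fold change 0.60 ± 0.19, adjusted p = 0.022). Of 15 tested growth factor receptor genes 4 rose and 1 fell, against 13.7% and 8.92% of all genes. The EGF receptor gene Egfr had 241 ± 27.7 and 175 ± 4.06 CPM (SD, n = 3 and 2, log2 fold change -0.47 ± 0.09). Erbb3 and Erbb4, neuregulin receptors, rose from 3.29 to 20.3 CPM and from 56.9 to 146 CPM, and Igf1r from 38.8 to 79.7 CPM. The rise of Igf1r was 0.99 on the log2 scale without replicate 3 of proliferation medium or replicate 1 of differentiation medium, just under 2-fold. The largest rise on that list was that of Pdgfrb, the PDGF receptor beta chain, with 0.242, 1.42 and 0.49 CPM in proliferation medium and 29.4 and 27.2 CPM in differentiation medium (log2 fold change 5.29 ± 0.33, adjusted p = 1.2e-06).

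Of 18 tested immediate early genes 4 fell and 1 rose, against 8.92% and 13.7% of all genes. The 4 that fell all encode AP-1 subunits. Fos had 77.1, 77.8 and 73.8 CPM in proliferation medium and 26.4 and 22.4 CPM in differentiation medium (log2 fold change -1.64 ± 0.09, adjusted p = 5.3e-07). Junb fell from 16.4 to 4.21 CPM, Fosl2 from 30.4 to 10.99 CPM and Fosb from 2.43 to 0.645 CPM. Jun, another AP-1 subunit, had 101, 116 and 128 CPM in proliferation medium and 88.6 and 85.4 CPM in differentiation medium (log2 fold change -0.40 ± 0.10, adjusted p = 0.0054), below 2-fold. The member that rose was Arc, a neuronal activity gene, with 0.6298, 1.32 and 1.67 CPM in proliferation medium and 13.5 and 12.8 CPM in differentiation medium (log2 fold change 3.44 ± 0.26, adjusted p = 4.1e-06).

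Markers of neural stem cells fell in part. Of 20 genes, 6 fell and 1 rose, against 8.92% and 13.7% of all genes, with a median log2 fold change of -0.44. Nes, which encodes the intermediate filament nestin of neural progenitors, had 479, 454 and 692 CPM in proliferation medium and 94.01 and 89.1 CPM in differentiation medium (log2 fold change -2.56 ± 0.17, adjusted p = 2.1e-06). Vim, another intermediate filament gene, had 2468, 2555 and 3194 CPM in proliferation medium and 838 and 773 CPM in differentiation medium (log2 fold change -1.77 ± 0.11, adjusted p = 1.3e-06). Hes5, a Notch target that holds progenitors undifferentiated, had 19.9, 18.8 and 16.9 CPM in proliferation medium and 1.63 and 1.74 CPM in differentiation medium (log2 fold change -3.45 ± 0.16, adjusted p = 2.0e-07). The radial glia genes Fabp7 (from 987 to 381 CPM) and Tnc (from 104 to 40.6 CPM) and the gliogenic factor Sox9 (from 397 to 191 CPM) fell as well, Sox9 by just over 2-fold and by under 2-fold without replicate 2 of either medium (-0.99 without that of proliferation medium). The SOXB1 factors did not pass the fold threshold. Sox2, the factor most used to define these cells, had 309.6, 341 and 329.7 CPM in proliferation medium and 230.0 and 232 CPM in differentiation medium (log2 fold change -0.50 ± 0.06, adjusted p = 1.1e-04), below 2-fold, and Sox1 and Sox3 had log2 fold changes of -0.39 and 0.66. Pax6 had 54.5, 73.7 and 52.8 CPM in proliferation medium and 33.8 and 35.3 CPM in differentiation medium (log2 fold change -0.80 ± 0.14, adjusted p = 7.4e-04). Prom1, the gene of the surface protein CD133, was the member that rose, with 18.9, 15.96 and 14.8 CPM in proliferation medium and 52.2 and 47.8 CPM in differentiation medium (log2 fold change 1.59 ± 0.10, adjusted p = 1.7e-06). Sox2, Nes, Vim and Slc1a3 were present in every library called NSCs, in both media. Genes of the astrocyte and oligodendrocyte lists, such as Gfap and Mbp, were present in every library too. Presence alone therefore does not tell NSCs from glia.

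**Figure D4:**
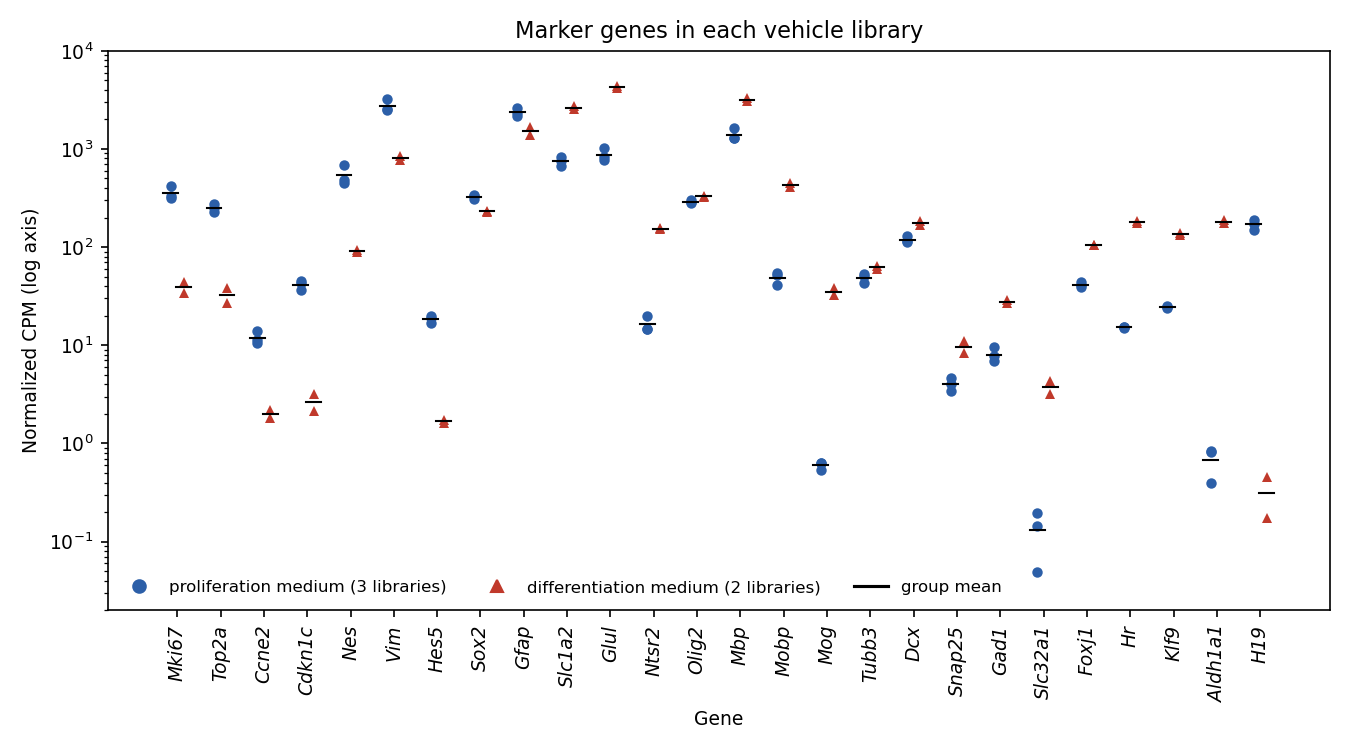
Normalized CPM (vertical axis, log scale) of 26 genes (horizontal axis) in each of the 3 libraries of proliferation medium (blue circles) and the 2 of differentiation medium (red triangles), with bars at the group means. The media are separated for all of the genes shown, narrowly for Olig2 and Tubb3, and by the widest gap for H19 and Aldh1a1.

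Astrocyte genes rose in 16 of 27 cases and fell in 1, with a median log2 fold change of 1.14. Their summed level was 20592 to 23391 CPM in proliferation medium and 39216 and 39428 CPM in differentiation medium. Glutamate handling genes were among them. Glul, glutamine synthetase, had 827, 1013 and 772 CPM in proliferation medium and 4171 and 4327 CPM in differentiation medium (log2 fold change 2.29 ± 0.10, adjusted p = 1.9e-07). Slc1a2 encodes the glutamate transporter GLT-1 of mature astrocytes, and it had 758, 828 and 674 CPM in proliferation medium and 2531 and 2726 CPM in differentiation medium (log2 fold change 1.80 ± 0.08, adjusted p = 2.4e-07), whereas Slc1a3, the GLAST transporter that radial glia also carry, had 2827, 2863 and 2984 CPM in proliferation medium and 2611 and 2664 CPM in differentiation medium (log2 fold change -0.13 ± 0.05, adjusted p = 0.054). Of the secreted products, Cst3 (cystatin C) had 712, 682 and 567 CPM in proliferation medium and 4601 and 4504 CPM in differentiation medium (log2 fold change 2.80 ± 0.09, adjusted p = 3.4e-08), and Sparcl1 (hevin), a synapse-promoting protein, had 1369, 1297 and 1129 CPM in proliferation medium and 3866 and 3913 CPM in differentiation medium (log2 fold change 1.62 ± 0.08, adjusted p = 2.9e-07). The neurotensin receptor gene Ntsr2 rose from 16.4 ± 2.98 to 154 ± 3.303 CPM (SD, n = 3 and 2), and angiotensinogen, Agt, from 10.96 ± 2.57 to 52.7 ± 4.21 CPM. The gap junction genes Gja1 and Gjb6 rose from 455 to 1249 CPM and from 0.764 to 3.597 CPM.

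The classical astrocyte filament gene went the other way. Gfap had 2322, 2613 and 2143 CPM in proliferation medium and 1681 and 1399 CPM in differentiation medium (log2 fold change -0.62 ± 0.10, adjusted p = 5.2e-04), a drop that did not reach 2-fold, and Aldh1l1, a folate enzyme widely used as an astrocyte marker, fell, with 796, 881 and 781 CPM in proliferation medium and 275 and 274 CPM in differentiation medium (log2 fold change -1.58 ± 0.07, adjusted p = 2.0e-07). Aqp4, the water channel of astrocyte endfeet, had 719, 902 and 762 CPM in proliferation medium and 957 and 966 CPM in differentiation medium (log2 fold change 0.28 ± 0.09, adjusted p = 0.023). The 2 best known astrocyte markers were thus both lower while most of the list was higher. Of 11 tested genes of reactive astrocytes 6 fell and 4 rose, with a median log2 fold change of -1.53. The protease inhibitor Serpina3n had 529, 534 and 655 CPM in proliferation medium and 23.8 and 18.8 CPM in differentiation medium (log2 fold change -4.75 ± 0.14, adjusted p = 2.4e-08). Timp1, an inhibitor of metalloproteinases, had 36.1, 26.7 and 37.2 CPM in proliferation medium and 1.23 and 0.995 CPM in differentiation medium (log2 fold change -4.90 ± 0.22, adjusted p = 1.9e-07). Cd44, the hyaluronan receptor, had 161, 144 and 247 CPM in proliferation medium and 23.1 and 23.7 CPM in differentiation medium (log2 fold change -2.97 ± 0.22, adjusted p = 3.6e-06). Of those that rose, C3, the complement component, went from 0.0979 ± 0.0979 to 6.502 ± 2.57 CPM (SD, n = 3 and 2) and Lcn2 from 0.1303 ± 0.0569 to 1.53 ± 0.457 CPM, so both stayed low.

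Oligodendrocyte lineage genes rose in 14 of 26 cases and fell in 2, with a median log2 fold change of 1.15. Olig2, the transcription factor of the lineage, had 289.6, 302 and 279 CPM in proliferation medium and 335 and 325 CPM in differentiation medium (log2 fold change 0.19 ± 0.06, adjusted p = 0.023), and Olig1, Sox10 and the progenitor receptor Pdgfra had log2 fold changes of 0.21, 0.46 and 0.19, below 2-fold in each case. Gpr17, a receptor of committed precursors, had 261, 271 and 163 CPM in proliferation medium and 1089.6 and 1093 CPM in differentiation medium (log2 fold change 2.24 ± 0.17, adjusted p = 5.0e-06). Myrf, the factor that switches on myelin genes, rose from 205 to 448 CPM. Lineage factors thus moved little and several genes of later stages rose. Among the myelin proteins, Mbp had 1629, 1286 and 1284 CPM in proliferation medium and 3309 and 3044 CPM in differentiation medium (log2 fold change 1.18 ± 0.10, adjusted p = 8.7e-06). Mobp, a basic protein of compact myelin, had 40.8, 51.5 and 54.3 CPM in proliferation medium and 445 and 412 CPM in differentiation medium (log2 fold change 3.13 ± 0.11, adjusted p = 5.4e-08). Mog, a surface protein of mature myelin that appears late, had 0.533, 0.636 and 0.637 CPM in proliferation medium and 38.4 and 32.2 CPM in differentiation medium (log2 fold change 5.86 ± 0.16, adjusted p = 1.6e-08), so it was close to absent in one medium and present in the other. Bmp4, a ligand that differentiating oligodendrocytes make, rose from 7.41 to 51.8 CPM, and the tetraspanin Tspan2 from 16.1 to 133 CPM. The 2 members that fell were Opalin, another myelin protein, with 21.4, 12.4 and 17.98 CPM in proliferation medium and 4.49 and 2.94 CPM in differentiation medium (log2 fold change -2.22 ± 0.26, adjusted p = 6.9e-05), and C1ql1, a progenitor gene, from 73.1 to 34.8 CPM, a fall that was under 2-fold without replicate 2 of either medium (-0.98 without that of differentiation medium).

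Pan-neuronal genes showed no common direction. Of 30 tested, 6 rose and 3 fell, not far from the shares of 13.7% and 8.92% over all genes. The median log2 fold change was 0.16 against 0.02 over all genes, and no rise was above 1.26 on the log2 scale. Tubb3, the neuronal tubulin that the antibody Tuj1 detects, had 50.2, 43.2 and 52.9 CPM in proliferation medium and 59.6 and 64.9 CPM in differentiation medium (log2 fold change 0.35 ± 0.09, adjusted p = 0.0091). Dcx, doublecortin of migrating neurons, had 130.4, 116 and 112 CPM in proliferation medium and 166 and 184 CPM in differentiation medium (log2 fold change 0.55 ± 0.08, adjusted p = 2.5e-04). Rbfox3, which encodes NeuN of mature neurons, was low in both media, at 1.45, 1.81 and 1.62 CPM in proliferation medium and 2.86 and 2.61 CPM in differentiation medium (log2 fold change 0.75 ± 0.23, adjusted p = 0.019), and Map2 had 833, 879 and 773 CPM in proliferation medium and 659 and 669 CPM in differentiation medium. None of these 4 reached 2-fold. The synaptic SNARE gene Snap25 rose, with 3.44, 4.602 and 4.02 CPM in proliferation medium and 11.003 and 8.33 CPM in differentiation medium (log2 fold change 1.26 ± 0.18, adjusted p = 2.7e-04), as did the RNA-binding protein gene Celf4 from 8.95 to 20.5 CPM and the neurofilament relative Ina from 18.5 to 40.9 CPM. Gap43, a growth cone gene, and Camk2b, a calcium kinase subunit, fell from 110.1 to 40.7 CPM and from 97.5 to 29.8 CPM.

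GABAergic genes mostly rose. Of 18 tested, 12 rose and 2 fell, against 13.7% and 8.92% of all genes, with a median log2 fold change of 1.83. Gad1, one of the enzymes that make GABA, had 7.75, 6.85 and 9.56 CPM in proliferation medium and 26.7 and 28.9 CPM in differentiation medium (log2 fold change 1.79 ± 0.13, adjusted p = 3.8e-06). Gad2, the other, had 3.004, 2.69 and 3.97 CPM in proliferation medium and 10.7 and 12.9 CPM in differentiation medium (log2 fold change 1.87 ± 0.19, adjusted p = 2.2e-05). Slc32a1, the vesicular GABA transporter, had 0.145, 0.04896 and 0.196 CPM in proliferation medium and 4.31 and 3.19 CPM in differentiation medium (log2 fold change 4.79 ± 0.41, adjusted p = 8.5e-06). Dlx1, a homeobox factor of ventral forebrain interneurons, had 10.3, 15.1 and 16.4 CPM in proliferation medium and 60.5 and 65.3 CPM in differentiation medium (log2 fold change 2.18 ± 0.15, adjusted p = 2.3e-06), and Adarb2, a marker of one interneuron class, rose from 0.552 ± 0.194 to 12.9 ± 1.15 CPM (SD, n = 3 and 2). Lhx6, an interneuron factor, had 1 count over the 3 libraries of proliferation medium and 56 over the 2 of differentiation medium, a ratio with a counting interval of 13.4 to 3120.2. Of 9 tested genes of a glutamatergic list 2 rose and 0 fell, with a median log2 fold change of -0.07, and 5 were too low to test. The 14 genes summed to 54.5 to 65.8 CPM in proliferation medium and to 50.3 and 54.7 CPM in differentiation medium. Emx1 was among those that rose, from 0.0809 to 0.644 CPM. The vesicular glutamate transporter genes Slc17a7 and Slc17a6 and the cortical factor Tbr1 were at most 0.528, 0.04896 and 0.308 CPM in the 5 libraries and too low to test, and Neurod1 had overlapping values of 1.16, 1.18 and 0.735 CPM in proliferation medium and 1.19 and 0.622 CPM in differentiation medium. Prox1, a factor of dentate granule neurons that is also found in other cells, had 42.6, 49.8 and 54.3 CPM in proliferation medium and 33.7 and 36.9 CPM in differentiation medium (log2 fold change -0.47 ± 0.11, adjusted p = 0.0035).

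Regional identity genes give a check on the label. Lhx2, a factor that specifies cortex and hippocampus, had overlapping values of 73.4, 83.1 and 72.2 CPM in proliferation medium and 76.2 and 79.1 CPM in differentiation medium. Zbtb20, a factor of the hippocampal primordium that astrocytes also express, rose, with 193, 191 and 147 CPM in proliferation medium and 498 and 498 CPM in differentiation medium (log2 fold change 1.49 ± 0.11, adjusted p = 2.7e-06), and Emx2, a cortical and hippocampal factor, fell from 33.3 to 15.3 CPM. Of the 39 Hox genes, which are silent in forebrain, 34 had no count in any of the 5 libraries and 0 were high enough to test.

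Genes of motile cilia, which ependymal cells carry, rose in 18 of 24 tested cases and fell in 0, with a median log2 fold change of 1.76. Foxj1, their master factor, had 41.1, 44.1 and 39.5 CPM in proliferation medium and 105 and 104 CPM in differentiation medium (log2 fold change 1.33 ± 0.07, adjusted p = 5.3e-07). The dynein heavy chain Dnah5 had 0.678, 0.539 and 0.539 CPM in proliferation medium and 6.12 and 6.59 CPM in differentiation medium (log2 fold change 3.43 ± 0.23, adjusted p = 1.8e-06), and the axonemal genes Enkur and Spag6l rose from 0.456 to 6.52 CPM and from 0.0813 to 1.28 CPM. Their regulators Rfx2 and Rfx3 had log2 fold changes of 0.52 ± 0.12 and 0.67 ± 0.08, below 2-fold. Apart from Foxj1 and Rfx3 no member was above 24.9 CPM, the level of the dynein chain Dnaic2.

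Of the markers of cells from outside the neural lineage, most microglial ones were at or near 0, and some endothelial, mural and fibroblast ones were not. Cdh5 and Cldn5 of endothelial cells had no count in the 5 libraries, and Pecam1 was at most 0.588 CPM. Slco1a4, a transporter of the blood-brain barrier, nevertheless rose from 0.0323 to 4.16 CPM, and Flt1, a VEGF receptor, fell from 14.1 to 1.88 CPM. Of the microglial markers, Tmem119 had no count, Aif1, Cx3cr1, Csf1r and C1qa were at most 0.04401, 0.264, 0.308 and 0.194 CPM, and P2ry12 fell from 2.55 to 0.68 CPM. The summed level of the 15 microglial genes was 4.46 to 6.73 CPM and 3.65 and 4.27 CPM. The 10 mural genes summed to 153 to 213 CPM in proliferation medium and to 99.9 and 105 CPM in differentiation medium. Of 5 tested mural genes Pdgfrb rose and the other 4 fell, among them Acta2 from 7.13 to 1.82 CPM and Rgs5 from 2.097 to 0.667 CPM. Of the fibroblast markers Col1a1, Col1a2 and Dcn were at most 0.572, 0.456 and 0.2201 CPM, but the 11 genes of that list, which holds Fn1 and Col6a1, summed to 157 to 226 CPM in proliferation medium and to 31.3 and 31.7 CPM in differentiation medium. In the separate list of choroid plexus genes, 3 of 5 tested rose and 1 fell. The 10 genes of that list summed to 14.1 to 17.1 CPM in proliferation medium and to 11.6 and 12.4 CPM in differentiation medium. Among those that rose, Folr1, with 0 counts in proliferation medium, was at least 7.74-fold higher in differentiation medium at 1.01 and 1.203 CPM.

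Receptors and channels of excitable membranes rose more often than they fell, and so did all genes tested, with 13.7% risen and 8.92% fallen. Of 36 tested genes for glutamate and GABA receptors 15 rose and 4 fell. Gria1, a subunit of AMPA receptors, had 4.94, 6.95 and 6.52 CPM in proliferation medium and 152 and 165 CPM in differentiation medium (log2 fold change 4.69 ± 0.12, adjusted p = 1.0e-08), with a mean of 52.1 TPM in differentiation medium. Gria2, the subunit that makes these receptors impermeable to calcium, had 387, 368 and 334 CPM in proliferation medium and 441 and 457 CPM in differentiation medium (log2 fold change 0.31 ± 0.07, adjusted p = 0.0042). Gabra5, a subunit of GABA-A receptors, rose from 0.146 to 3.92 CPM, and the metabotropic subunit Gabbr2 fell from 49.6 to 22.9 CPM, though by only -0.88 on the log2 scale without replicate 2 of proliferation medium. Of 81 tested ion channel genes 30 rose and 11 fell. Kcnk1, the potassium channel TWIK-1 that astrocytes carry, had 1.45, 1.57 and 2.499 CPM in proliferation medium and 103 and 104 CPM in differentiation medium (log2 fold change 5.81 ± 0.14, adjusted p = 1.0e-08), and the voltage-gated potassium channel Kcna1 had 0.484, 0.441 and 0.49 CPM in proliferation medium and 22.9 and 24.3 CPM in differentiation medium (log2 fold change 5.63 ± 0.16, adjusted p = 2.0e-08). Kcnj10, the inward rectifier of astrocytes (Kir4.1), rose from 458 to 1012 CPM.

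Genes of the matrix and of cell adhesion moved in both directions. Of 57 tested collagen, laminin and integrin genes 14 rose and 14 fell, against 13.7% and 8.92% of all genes. Col6a1, a chain of collagen VI, had 13.1, 13.9 and 18.9 CPM in proliferation medium and 0.748 and 0.456 CPM in differentiation medium (log2 fold change -4.66 ± 0.28, adjusted p = 9.9e-07), and Lama4 fell from 4.13 to 0.276 CPM. Lama2, the laminin chain mutated in a muscular dystrophy with brain white matter changes, had 0.727, 2.399 and 0.9801 CPM in proliferation medium and 55.5 and 58.01 CPM in differentiation medium (log2 fold change 5.37 ± 0.25, adjusted p = 2.4e-07). The fibronectin gene Fn1 fell from 157 to 22.6 CPM. Of the brain proteoglycans, Ncan fell from 3118 to 1362 CPM and Bcan rose from 458 to 1332 CPM. Thbs1, a synapse-promoting thrombospondin, had 0.339, 0.392 and 0.833 CPM in proliferation medium and 38.03 and 39.1 CPM in differentiation medium (log2 fold change 6.19 ± 0.20, adjusted p = 3.4e-08). Of 76 tested cadherin and protocadherin genes 10 rose and 7 fell, close to the shares of 13.7% and 8.92% over all genes. Their median log2 fold change was 0.08. Cdh13 and Cdh4 were among those that fell, from 384 to 55.2 CPM and from 216 to 38.3 CPM. Of 62 tested axon guidance genes 20 rose and 7 fell, against the same shares over all genes. Sema3a fell from 17.9 to 2.43 CPM and Plxna4 rose from 4.41 to 22.2 CPM.

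Of 21 tested BMP and Id genes 7 rose and 1 fell, against 13.7% and 8.92% of all genes. Bmp6, a ligand, had 0.145, 0.441 and 0.245 CPM in proliferation medium and 23.9 and 19.9 CPM in differentiation medium (log2 fold change 6.28 ± 0.25, adjusted p = 1.1e-07), whereas the inhibitor of DNA binding genes Id1 and Id2, which BMPs induce, had overlapping values, and Id4 rose from 45.6 to 153 CPM. In the Notch pathway 4 of 23 tested genes rose and 3 fell, close to the shares over all genes. The receptors differed. Notch2 had 41.5, 53.1 and 43.8 CPM in proliferation medium and 242 and 239 CPM in differentiation medium (log2 fold change 2.38 ± 0.10, adjusted p = 1.1e-07), Notch3 fell from 160.1 to 68.7 CPM, and Notch1 had 344, 384 and 358 CPM in proliferation medium and 210.0 and 215 CPM in differentiation medium (log2 fold change -0.77 ± 0.07, adjusted p = 9.6e-06), below 2-fold. The Notch targets also differed, with Hes5 lower (above) and Hey1 higher, from 66.2 to 139 CPM. The Wnt inhibitor Sfrp1 rose from 8.59 to 39.3 CPM. Of 35 tested Wnt genes 6 rose and 2 fell, close to the shares over all genes.

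Targets of hormones that B27 supplies were described because the media differed in its share. Of 9 thyroid hormone targets 3 rose and 1 fell. Hr (hairless), a corepressor induced by thyroid hormone in brain, had 15.4, 14.98 and 15.4 CPM in proliferation medium and 174 and 186 CPM in differentiation medium (log2 fold change 3.56 ± 0.07, adjusted p = 3.9e-09). Klf9, a factor induced by thyroid hormone and glucocorticoids, had 24.5, 25.3 and 24.1 CPM in proliferation medium and 134 and 141 CPM in differentiation medium (log2 fold change 2.48 ± 0.07, adjusted p = 1.6e-08). Dio3, the enzyme that inactivates thyroid hormone, had 0 counts in proliferation medium and 2.51 and 2.32 CPM in differentiation medium, at least 16.9-fold higher. Thrsp, a lipogenic gene, fell from 44.2 to 4.06 CPM. Of 11 glucocorticoid targets 5 rose and 0 fell, Sgk1 from 23.6 to 102 CPM, Tsc22d3 (GILZ) from 13.8 to 41.3 CPM, Zbtb16 from 3.35 to 13.04 CPM and Per1 from 26.8 to 70.6 CPM, but Fkbp5, a feedback gene of the receptor, had 41.6, 37.9 and 52.9 CPM in proliferation medium and 27.3 and 24.5 CPM in differentiation medium (log2 fold change -0.77 ± 0.14, adjusted p = 8.7e-04).

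Genes of retinoid metabolism changed by large factors in both directions, with 3 of 9 tested genes risen and 4 fallen. Aldh1a1, which makes retinoic acid from retinal, had 0.824, 0.832 and 0.392 CPM in proliferation medium and 177 and 187 CPM in differentiation medium (log2 fold change 8.05 ± 0.15, adjusted p = 3.1e-09). Its close relative Aldh1a7 had 0.0484, 0.147 and 0.09801 CPM in proliferation medium and 11.003 and 10.9 CPM in differentiation medium (log2 fold change 6.73 ± 0.28, adjusted p = 1.4e-07). Aldh1a3, another enzyme with the same activity, fell from 7.28 to 0.386 CPM. The receptor Rara had 36.7, 34.5 and 40.3 CPM in proliferation medium and 6.47 and 4.52 CPM in differentiation medium (log2 fold change -2.76 ± 0.15, adjusted p = 5.1e-07), and Rarb, a receptor that retinoic acid induces, rose from 2.38 to 10.2 CPM. Crabp1, a binding protein, fell from 2.44 to 0.342 CPM.

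Of 17 tested imprinted genes 5 fell and 1 rose, against 8.92% and 13.7% of all genes. H19, an imprinted non-coding RNA of fetal tissues at chr7:142575529-142578143 (GRCm38), had 170.0, 150.2 and 190.4 CPM in proliferation medium and 0.176 and 0.456 CPM in differentiation medium (log2 fold change -9.03 ± 0.22, adjusted p = 1.0e-08). The other 4 that fell were Cdkn1c, described with the CDK inhibitors, the growth regulator Dlk1 from 20.3 to 6.52 CPM, and Mest and Grb10, named here after their values were seen. Plagl1, a zinc finger factor, rose from 20.2 to 63.7 CPM. Igf2, the neighbour of H19, had overlapping values of 1.696, 2.15 and 2.597 CPM in proliferation medium and 1.01 and 1.74 CPM in differentiation medium, and its count is uncertain since 61.2% of its 50-base words also occur in the gene model Gm49394. Hmga2, a chromatin protein of fetal stem cells, had 11.2, 6.17 and 27.2 CPM in proliferation medium and 0.528 and 0.166 CPM in differentiation medium (log2 fold change -5.42 ± 0.82, adjusted p = 3.5e-04), with a wide spread within proliferation medium. Its relative Hmga1 had 1271, 1024 and 1555 CPM in proliferation medium and 75.7 and 68.2 CPM in differentiation medium (log2 fold change -4.16 ± 0.17, adjusted p = 1.4e-07), and 54.95% of its 50-base words also occur in other genes, most of them in Hmga1b, so its count is uncertain. Of 22 tested chromatin genes 9 fell and 1 rose, against the same shares of all genes. Dnmt1, the maintenance methyltransferase, fell from 218 to 72.1 CPM, and Dnmt3a, the de novo enzyme of neurons and glia, rose from 102 to 226 CPM.

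Metabolic genes moved in both directions. Of 24 cholesterol synthesis genes 5 fell and 1 rose, with a median log2 fold change of -0.35. Fdft1, squalene synthase, had 164, 188 and 163 CPM in proliferation medium and 64.5 and 68.5 CPM in differentiation medium (log2 fold change -1.37 ± 0.08, adjusted p = 8.9e-07). Of 23 glycolysis genes 3 rose and 2 fell, close to the shares of 13.7% and 8.92% over all genes. Pfkm, the muscle-type phosphofructokinase, rose from 167 to 386 CPM, and the glucose transporters moved apart, Slc2a1 rising from 27.9 to 67.2 CPM and Slc2a3 falling from 24.6 to 11.4 CPM. Of 74 nuclear genes of oxidative phosphorylation 4 rose and 0 fell, in both directions a smaller share than over all genes. Their median log2 fold change was 0.37. Of 81 ribosomal protein genes 14 fell and 1 rose, against 8.92% and 13.7% of all genes, with a median of -0.52. Of 47 ribosome biogenesis genes 2 fell and 0 rose, a smaller share than over all genes in both directions, and the 2 were Npm1 and Fbl, from 544 to 228 CPM and from 84.3 to 39.8 CPM. Metallothioneins bind zinc and copper. Mt1 had 163, 189.5 and 159.9 CPM in proliferation medium and 1089.6 and 995 CPM in differentiation medium (log2 fold change 2.61 ± 0.08, adjusted p = 3.4e-08), Mt2 rose from 107 to 753 CPM, and Mt3, the brain form, rose from 206 to 592 CPM. Psap, the precursor of lysosomal saposins, rose from 903 to 2078 CPM.

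Of 13 tested mitochondrial genes 4 fell and 1 rose, with mt-Nd1, a subunit of complex I, at 10684, 12351 and 12852 CPM in proliferation medium and 4811 and 5079 CPM in differentiation medium (log2 fold change -1.27 ± 0.08, adjusted p = 1.4e-06) and mt-Nd3 at 10.9, 4.99 and 14.8 CPM in proliferation medium and 115 and 118 CPM in differentiation medium (log2 fold change 3.52 ± 0.28, adjusted p = 5.4e-06). Of the 50-base words of mt-Nd3, 97.99% also occur in nuclear copies, as do 99.5% of those of mt-Atp6, so RSEM had to divide their fragments and their counts are uncertain, whereas no such word of mt-Nd1 occurs in another gene. mt-Atp8 transcripts are 204 bases long, and its effective length was 19.2 to 23.6 bases in proliferation medium and 34.1 and 37.7 bases in differentiation medium. mt-Atp8 alone took 13.0% to 15.7% of the TPM in proliferation medium but 4.77% or less in differentiation medium, and for that reason levels between media are given as CPM here.

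Some of the most extreme changes were of genes that share nearly all of their sequence with another gene, and they are given as uncertain. The pseudogenes Rps12l1 (139.5, 106 and 123 CPM in proliferation medium and 0 in differentiation medium) and Gm12918 (0 in proliferation medium, 45.7 and 32.4 CPM in differentiation medium) share all of their words with other genes, Rps12 and Rpl13 among them. Gm28439, a nuclear copy of mt-Nd4, had 0, 740.1 and 794 CPM in proliferation medium and 0 and 0 CPM in differentiation medium and shares all of its words. The models Gm49369 and Gm45234 share 90.9% and 96.1% of theirs, mostly with Ctsd and Atn1, and the pseudogene Rpl17-ps3 shares 81.5% of its words, mostly with Rpl17.

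Among genes at 10 CPM or more in one of the media and with little shared sequence, the largest rise was that of Fam107a, an actin regulator of radial glia and astrocytes, with 0.436, 0.979 and 0.882 CPM in proliferation medium and 259 and 243 CPM in differentiation medium (log2 fold change 8.35 ± 0.15, adjusted p = 3.1e-09). Etnppl, a phosphoethanolamine lyase of astrocytes, had 0.0484, 0.147 and 0 CPM in proliferation medium and 20.3 and 16.8 CPM in differentiation medium (log2 fold change 8.03 ± 0.35, adjusted p = 1.6e-07). Rgs6, a regulator of G protein signalling, had 0.824, 0.832 and 0.735 CPM in proliferation medium and 57.6 and 60.5 CPM in differentiation medium (log2 fold change 6.20 ± 0.11, adjusted p = 3.1e-09), and the synaptotagmin Syt12, the phospholipase Pla2g5 and the gelatinase Mmp2 rose from 0.472 to 35.4 CPM, from 0.0978 to 12.8 CPM and from 0.0979 to 10.8 CPM. The non-coding RNA Gm26825 rose from 0.195 to 45.3 CPM. Among the largest falls, Ptprn (IA-2), a dense-core vesicle protein, had 203, 191 and 219 CPM in proliferation medium and 4.797 and 5.18 CPM in differentiation medium (log2 fold change -5.35 ± 0.10, adjusted p = 3.3e-09). The intermediate filament gene Prph, peripherin, had 12.3, 6.02 and 15.6 CPM in proliferation medium and 0.04401 and 0.166 CPM in differentiation medium (log2 fold change -6.65 ± 0.65, adjusted p = 2.0e-05), and the tenascin Tnn fell from 12.6 to 0.0647 CPM (3 counts in all in differentiation medium, a ratio with a counting interval of 63.2 to 901). The giant scaffold gene Ahnak2 and the hedgehog ligand Dhh fell from 24.8 to 0.642 CPM and from 18.1 to 0.683 CPM.

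The same change of medium was measured in the 6 libraries with 4HBP, none of which is shared with the vehicle libraries. Of the 3456 genes that changed in vehicle cultures, 3397 (98.3%) had the same direction under 4HBP and 2730 (79.0%) also passed both thresholds there. These genes were selected by their change with vehicle, and the same shares over all genes are not given. Over all genes in both fits, the Spearman correlation of the log2 fold changes was 0.89. The effect under 4HBP came from a fit of the 11 libraries, so its p-values also rest on the spread between vehicle libraries. The list medians for vehicle and 4HBP were -2.80 and -2.06 for mitosis, -1.83 and -1.18 for DNA replication, 1.14 and 1.56 for astrocytes and 1.15 and 1.16 for the oligodendrocyte lineage. The difference between the effects was tested as an interaction in 1 fit of the 11 libraries, where 715 of 15920 genes (4.49%) had an adjusted p under 0.05. The difference, 4HBP minus vehicle, was positive for 395 (2.48%) and negative for 320 (2.01%). A positive difference can be a larger rise or a smaller fall. A difference of either sign can arise in the cultures of either medium, and levels with 4HBP are not given here. Of the genes that changed in vehicle cultures, 230 (6.66%) were among the 715. The count moved with single libraries: it was 124 without either vehicle library of differentiation medium, 403, 413 and 1100 without replicates 1, 2 and 3 of the vehicle libraries of proliferation medium, 305 to 311 without a 4HBP library of differentiation medium and 1094 without replicate 3 of 4HBP in proliferation medium. Members of the lists with such a difference were 12 of 27 for astrocytes, 1 of 54 for mitosis, 1 of 43 for DNA replication, 7 of 21 for EGF and FGF feedback, 8 of 24 for cholesterol synthesis and 10 of 18 for targets of the stress factor ATF4. Cdkn1a, which rose with vehicle, had a log2 fold change of -0.31 under 4HBP (difference -1.46, interaction adjusted p = 0.003). Dusp6, likewise risen with vehicle, had -0.11 (difference -1.53, interaction adjusted p = 5.9e-04). Agt rose more under 4HBP, with 3.68 (difference 1.42, interaction adjusted p = 0.0038). Nsdhl, an enzyme of cholesterol synthesis that fell with vehicle, had -0.07 (difference 1.31, interaction adjusted p = 0.025). Shmt2, the mitochondrial serine enzyme and an ATF4 target, fell further under 4HBP, with -2.61 (difference -1.02, interaction adjusted p = 5.4e-04). Nupr1, a stress-induced ATF4 target, fell in vehicle cultures from 14.9 to 1.52 CPM, a log2 fold change of -3.29, and had -6.19 under 4HBP (interaction adjusted p = 0.014).

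**Figure D5:**
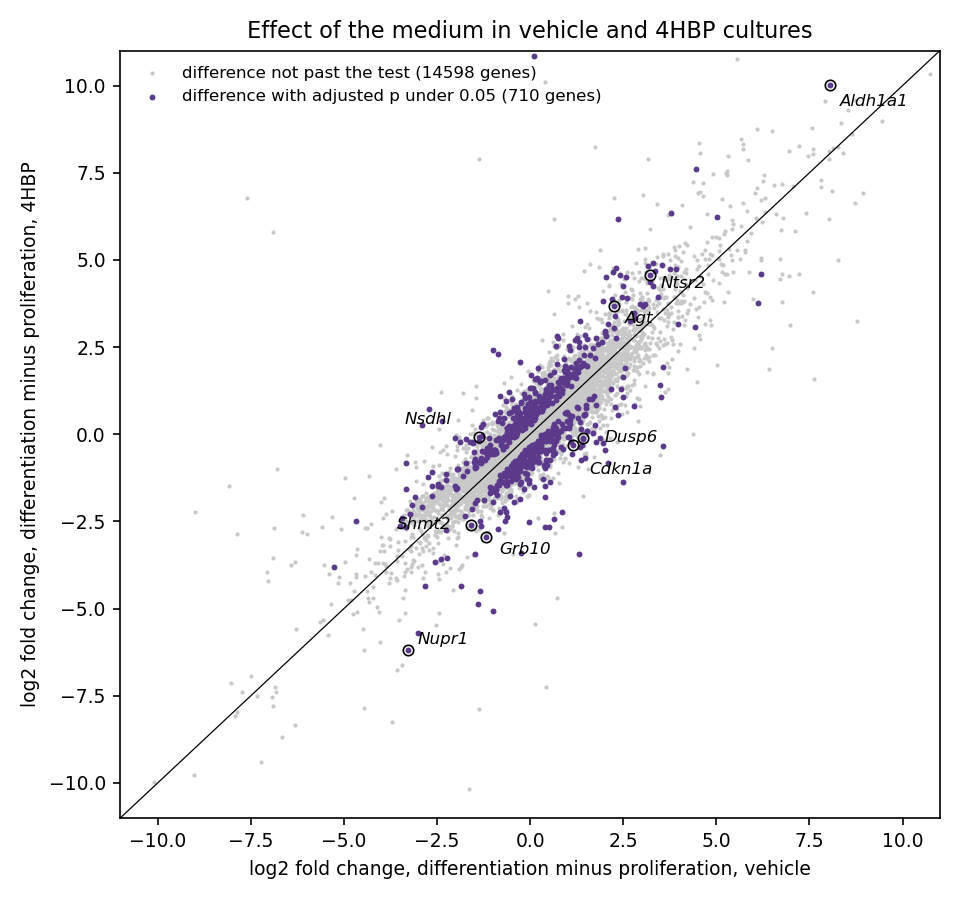
log2 fold change between the media (differentiation minus proliferation) in vehicle cultures (horizontal axis) and in cultures with 4HBP (vertical axis) for 15308 genes, with the line of equal effects. Purple points are the 710 of these genes whose effects differed with an interaction adjusted p under 0.05, circles mark genes such as Cdkn1a (1.16 and -0.31) and Nsdhl (-1.37 and -0.07), and 5 genes lie outside the axes.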

How the data were processed

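RNA sequencing libraries of 11 cultures were described, of which the 5 with vehicle were compared. The authors deposited, per library and gene, expected counts and TPM from RSEM 1.3.0 with Bowtie2 2.2.9 (mm10/GRCm38, GENCODE vM17), after FastQC 0.11.5 and cutadapt. The TPM values deposited by the authors served to pick some of the genes named, by the difference or the sum of the means of the media, and no test used them. The library kit was stranded, and the strand setting of the counting is not given in the sources used here. Expected counts (18.3% of those above 0 not whole) were rounded. Genes were kept with filterByExpr (15308 of 24899 with a count), scaled by TMM and tested with edgeR 4.0.16 in R 4.3.3 (quasi-likelihood, Benjamini-Hochberg over all genes tested, common biological coefficient of variation 0.0843), the 5 libraries being grouped by their labels. Alternatives used DESeq2 1.42.0, limma 3.58.1, other scaling, filters and fits, and each library left out in turn. The procedures were tested on simulated data.

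Gene positions came from the GENCODE vM21 annotation of GRCm38 (53706 of 53801 identifiers matched, 99.8%) and promoters from RefSeq, matched by symbol. The share of 50-base words that a gene's transcripts have in common with other genes was counted in the same annotation. Genes were named by rule: the 15 largest changes per direction at 10 CPM or more, the 10 largest TPM differences, per list its 4 largest changes, its most abundant and its first 4 members, members of marker lists, and mitosis genes for the promoters. Mest, Grb10 and Jun, and genes named as sharers of sequence, were added after their values were seen. The members and the lists were chosen with earlier results of these data known.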

Additional observations from a re-analysis of the deposited data

Results flagged for a closer look

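The effect of the medium differed between cultures with 4HBP and with vehicle, by the interaction test of edgeR, for 715 of 15920 genes. The count rested on single libraries, since it ranged from 124 without 1 vehicle library of differentiation medium to 1100 without replicate 3 of the vehicle cultures in proliferation medium. The values that follow are differences of the log2 fold change between media, 4HBP minus vehicle. They do not tell in which medium the levels with 4HBP and with vehicle differed.

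Among the genes named above, the difference was positive for several astrocyte genes, and of these Gfap and Aqp4 were below 2-fold in vehicle cultures. Gfap had a log2 fold change of -0.62 with vehicle and 0.06 under 4HBP, so its drop was absent there. Aqp4 had 0.28 with vehicle and 1.003 under 4HBP. The difference was 1.42 for Agt, 1.33 for Ntsr2, 2.43 for Gjb6, 0.82 for Gja1, 0.74 for Aqp4, 0.68 for Gfap and 0.66 for Sparcl1, and for the channel gene Kcnj10 it was 0.60. Fabp7 differed by 0.59 and the retinal dehydrogenase Aldh1a1 by 1.98. Of oligodendrocyte lineage genes, Bmp4 differed by 0.67 and C1ql1 by 0.76. The falls of E2f8, Notch3, Thrsp and Ahnak2 were smaller under 4HBP, by 1.12, 0.73, 1.05 and 1.46. Of metabolic genes, Fdft1 differed by 1.19, Nsdhl by 1.31 and Pfkm by 0.52.

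For genes of growth factor feedback and for Igf1r the difference was negative. The difference was -1.53 for Dusp6, -1.005 for Spry1, -0.52 for Spry2 and -0.96 for Spry4, and -0.71 for Igf1r. Cdkn1a differed by -1.46, the glucocorticoid target Tsc22d3 by -0.54, Hey1 by -0.66 and Rgs6 by -1.60. Nupr1, Shmt2 and Grb10 fell further under 4HBP, by -2.89, -1.02 and -1.76.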

How the results depend on the processing

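The number of genes that changed was 3456. It was 3506 with library totals alone, 3244 with DESeq2 (3230 of them shared), 3963 without a filter on low counts, 3605 in a fit of all 11 libraries, 2372 with limma on log2(CPM + 1) and 3939 with limma on log2(CPM + 0.1), and it ranged from 3090 to 3488 when 1 library was left out. With limma on log2(CPM + 1), 883 genes fell, and 4 genes of EGF and FGF feedback. That list also had 4 falls with log2(CPM + 0.1), and the oligodendrocyte list had 1 fall with either limma fit and with library totals. The median of all genes was 0.10 with library totals and 0.17 with log2(CPM + 0.1), against 0.02. With the adjusted p alone 9631 genes differed (4810 higher, 4821 lower), with 6 higher and 10 lower neural stem genes, 1 higher mitosis gene, 6 higher and 19 lower G1 genes, 5 higher and 11 lower EGF and FGF feedback genes, 2 lower astrocyte genes, and 13 higher and 8 lower neuronal genes. A test against 2-fold itself (glmTreat) gave 2051 genes, 1230 higher and 821 lower, with 0 higher G1 genes, 2 lower feedback genes, 0 higher neuronal genes and 1 lower oligodendrocyte gene. Leaving out 1 library, the fallen oligodendrocyte genes numbered 1 to 3 and the genes with an interaction 124 to 1100. A library left alone in its group was taken to vary like the others. Without a filter the interaction held for 1616 genes. Of 240 named and tested genes, 204 kept their call under every alternative that kept the fold threshold, and 0 reversed. The replicate numbers were shared by the media, but same-numbered libraries did not deviate together (correlations of -0.03 and -0.01), so the number was not taken as a pairing. With the replicate block 3330 genes changed, 3176 of them shared. Genes below 0.128 to 0.143 CPM could not be detected at this depth.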

Other observations

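Lysosomes break down lipids and proteins. Of 35 tested lysosomal genes 4 rose and 2 fell, in both directions a smaller share than the 13.7% and 8.92% over all genes. The cathepsin Ctsf had 28.9, 27.9 and 24.2 CPM in proliferation medium and 90.4 and 92.1 CPM in differentiation medium (log2 fold change 1.76 ± 0.08, adjusted p = 2.9e-07), and Ctsl rose from 139.9 to 296 CPM, whereas Ctsh fell from 7.32 to 2.15 CPM. Of 6 cholesterol efflux genes 2 rose and 0 fell. Abcg1, an exporter that liver X receptors induce, had 1.84, 1.96 and 2.01 CPM in proliferation medium and 7.702 and 7.05 CPM in differentiation medium (log2 fold change 1.93 ± 0.17, adjusted p = 1.2e-05). Mylip, which marks the LDL receptor for degradation and is another target of these receptors, rose from 0.845 to 2.63 CPM. Apoe, the lipoprotein of astrocytes, had 3463, 3863 and 3245 CPM in proliferation medium and 5074 and 4739.9 CPM in differentiation medium (log2 fold change 0.48 ± 0.08, adjusted p = 4.5e-04), below 2-fold. Angptl4, a PPAR target of the fatty acid list, fell to 3 counts in all, with 3.25, 2.301 and 1.57 CPM in proliferation medium and 0.08802 and 0.0415 CPM in differentiation medium and a counting interval of the ratio of 11.8 to 172.

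Of the 67 clustered histone genes, whose transcripts are mostly without a poly(A) tail, 16 were high enough to test, and 4 rose and 0 fell while the DNA replication list fell. Hist1h1c, a linker histone made in polyadenylated form outside S phase, had 17.6, 16.7 and 16.1 CPM in proliferation medium and 69.2 and 68.1 CPM in differentiation medium (log2 fold change 2.03 ± 0.07, adjusted p = 6.4e-08). The sequences of Hist2h2aa2 and Hist2h3c2, which also rose, are shared with other genes, so their counts are uncertain, and the rise of Hist2h2aa2 was under 2-fold (0.97 on the log2 scale) without replicate 1 of differentiation medium. Of 33 tested nuclear receptor genes 3 rose, a smaller share than the 13.7% over all genes, and 3 fell, close to the 8.92% over all genes. Rora, a receptor of glia and neurons, had 18.8, 16.9 and 19.5 CPM in proliferation medium and 93.1 and 94.6 CPM in differentiation medium (log2 fold change 2.35 ± 0.08, adjusted p = 4.4e-08). Of 12 genes of MHC class I presentation 2 fell and 0 rose, with B2m, the light chain of the complex, at 92.1, 92.5 and 86.2 CPM in proliferation medium and 41.3 and 37.5 CPM in differentiation medium (log2 fold change -1.20 ± 0.08, adjusted p = 1.6e-06). Of 16 tested interferon response genes 4 rose and 1 fell, Oasl2 and Ifi27 rising from 0.586 to 2.67 CPM and from 2.69 to 9.63 CPM and Ifit3 falling from 13.5 to 5.84 CPM, although 51.2% of the words of Ifit3 occur in other genes. Of 18 ATF4 targets 6 fell and 1 rose, with Trib3 and Chac1 falling from 6.67 to 1.83 CPM and from 29.4 to 8.71 CPM. Of 9 tested genes of subpallial identity 4 rose and 2 fell, Nkx2-1 rising from 1.19 to 2.75 CPM and Gsx2 falling from 1.51 to 0.388 CPM.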
